A study of Homo sapiens with 8 samples.

Results

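The microRNA genes MIR95, MIR31, MIR32 and MIR448 were selected on their own measured values: after normalization, the level of each lay above that of uninduced cells at every later time point of an erythroid induction. They are 4 of the 207 features on the array, each read from 3 consecutive spots, so 12 of 621 spots. Levels were measured on 1-colour Cy3 arrays in K562, an established human myeloid leukaemia line that can be driven towards red cells. Day 0 was the unstimulated culture. On days 2, 4, 6, 8, 10 and 22 the cells were in serum-free StemLineII medium with interleukin 3 at 50 ng/ml and erythropoietin at 7.5 U/ml, cytokines that support the growth and maturation of red cell precursors. Per the labels, adaptation to that medium came before induction, but whether the day 0 cells had gone through it is not said. The extraction protocol names CD34 cells where all other labels name K562. Each time point is 1 array, and a day 15 column, equal to the mean of days 10 and 22 within 0.011 units in 621 of 621 rows, was left out.

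MicroRNAs are short RNAs cut from a hairpin precursor, and they repress messenger RNAs that pair with their seed, the bases at positions 2 to 8. MicroRNAs with the same seed share many targets. A microRNA that lies in an intron is often made along with its host gene. Precursors of red cells are known for a small set of strongly expressed microRNAs, above all miR-451a and miR-144, and MIR95, MIR31, MIR32 and MIR448 are not among them.

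The mature sequences are shown because the seed decides which measured microRNAs are relatives of the 4. All 4 genes were matched in RefSeq (GRCh38.p14). The array names the gene and not the arm of the hairpin, so both arms are given where the table holds them. Capitals mark the seed, and sequences run 5′ to 3′.
hsa-miR-95-3p: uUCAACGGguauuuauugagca
hsa-miR-95-5p: uCAAUAAAugucuguugaauu
hsa-miR-31-5p: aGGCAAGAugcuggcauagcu
hsa-miR-32-5p: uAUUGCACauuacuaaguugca
hsa-miR-32-3p: cAAUUUAGugugugugauauuu
hsa-miR-448: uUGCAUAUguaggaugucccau

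The 6 seeds differ from one another, so the 4 genes form no seed family among themselves. Of these 6 mature forms only miR-32-5p shares its seed with other mature microRNAs in the table, of which there are 5: miR-25-3p, miR-92a-3p, miR-92b-3p, miR-363-3p and miR-367-3p. Among named features on the array, MIR25 and MIR367 hold such relatives. Their mature forms are shown beside miR-32-5p because the capitals are the same 7 letters while the remaining bases differ.
hsa-miR-25-3p: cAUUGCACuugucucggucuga
hsa-miR-367-3p: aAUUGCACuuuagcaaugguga

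GC content was 36.4% for miR-95-3p, 23.8% for miR-95-5p, 52.4% for miR-31-5p, 31.8% for miR-32-5p, 27.3% for miR-32-3p and 40.9% for miR-448. The median over 117 mature forms of the named features was 45.5%, with a range of 22.7% to 82.6%. All but miR-31-5p thus lay below that median.

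The 4 genes lie apart in the genome. MIR95 lies on chromosome 4 (minus strand). MIR31 lies on chromosome 9 (minus strand) within the long non-coding gene MIR31HG, on the same strand. Its neighbourhood holds the tumour suppressor CDKN2A, with MTAP as the only protein-coding gene between them. K562 is known to have lost CDKN2A, and whether its MIR31 copies are present was not tested here. MIR32 lies elsewhere on chromosome 9 (minus strand) within TMEM245, and MIR448 on chromosome X (plus strand) within HTR2C, a serotonin receptor gene, each on the strand of its host. Host transcripts were not measured.

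Before normalization the arrays differed in brightness, and this bears on each value below. The zero of each array is unknown, since the mean of the array had been subtracted, so intensities are given above the dimmest spot of the same array. The median spot stood at 112, 261, 312, 131, 46, 60 and 63 units above it on days 0, 2, 4, 6, 8, 10 and 22. The brightest spot stood 15443 units above the dimmest on day 0, 2098 on day 10 and 554 on day 22. Arrays were therefore background-corrected with normexp, put on a log2 scale and quantile-normalized, which gives each array the same distribution of levels. A normalized level then tells where a feature stood relative to the others on its array. An SD over 3 spots covers spotting and reading, not cultures or arrays. No time point has a replicate, and the number of arrays limits the precision.

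MIR95, whose microRNA is known from tumours, where it promotes proliferation, lay above day 0 by the widest margin of the 4. Its normalized log2 levels were 6.46 on day 0 and 7.12, 7.02, 7.19, 7.45, 7.58 and 7.44 on days 2, 4, 6, 8, 10 and 22. The single low array was day 0, and the 3 latest arrays were the highest. The difference from day 0 ranged from 0.57 on day 4 to 1.13 on day 10, with a mean of 0.84. These differences are what the choice of members rests on and were not tested.

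The single spots of MIR95 shared day 0 as their lowest array but ordered the later days differently. Each spot stood above the same spot of day 0 in 18 of 18 pairs. On all 6 later days the lowest spot lay above the highest spot of day 0, which was at 6.68. Among all 207 features 0.966% did so on all 6 days, namely MIR95 and an unnamed feature starting at row 139, singled out after its values were seen. These spot counts use the same values as the choice of MIR95, so nothing is read from them. The same holds for the spot counts given below for MIR31, MIR32 and MIR448. Among the later arrays of MIR95 the step from day 2 to 4 was -0.09, from 4 to 6 0.16, from 6 to 8 0.26, from 8 to 10 0.14 and from 10 to 22 -0.15. The SDs of 3 spots were 0.33, 0.06, 0.14, 0.04, 0.17 and 0.06 on those 6 days. The step from day 6 to day 8 was larger than the SD of either array, and so was the step from day 4 to day 6, though by little.

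On the unnormalized intensity scale the picture of MIR95 was another. Its intensity above the dimmest spot was 71 ± 15.1 units on day 0, while days 2, 4 and 6 gave 271 ± 79.7, 300 ± 13.1 and 143 ± 15.0 (SD, n = 3 spots). Days 8, 10 and 22 gave 62 ± 3, 96 ± 11.4 and 78.7 ± 3.79 (SD, n = 3 spots). The intensity was highest on days 2 and 4, when the whole array was brightest, and on day 8 it was below day 0 by less than the SD of the day 0 spots. Relative to its array, MIR95 stood at the 19.3rd percentile of features on day 0, at the 52.9th, 47.1st and 53.4th on days 2, 4 and 6, and at the 67.4th, 73.2nd and 65.9th on days 8, 10 and 22. Day 0 was the lowest array by percentile too, which the choice of the gene by normalized level nearly fixes.

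MIR31, whose microRNA is known as a regulator of cell motility and tumour invasion, held a narrow range after normalization and then stood out on day 22. Its normalized log2 levels were 6.89 on day 0 and 7.39, 7.12, 7.28, 7.23, 7.21 and 8.12 on days 2, 4, 6, 8, 10 and 22. The 5 arrays from day 2 to day 10 lay close together, and the step from day 10 to day 22 was 0.91. After median centring MIR31 stood at 7.23 on day 10 and 7.77 on day 22. Without normalization between arrays it stood at 6.71 and 6.95, below its 8.24 on day 2. The 6 markers of other tissues described below also stood higher on day 22. Their median went from 6.41 on day 10 to 6.77, and the highest of them from 6.99 to 7.60. The part of this in the step of MIR31 was not tested. The lowest spot lay above the highest spot of day 0, at 7.18, on 2 of 6 later days, which were days 2 and 22. On the other 4 days the spots overlapped, and 17 of 18 spots stood above the same spot of day 0. Without day 22 the mean difference of MIR31 from day 0 was 0.36, against 0.51 with it.

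The intensity of MIR31 above the dimmest spot was 99.3 ± 16.2 units on day 0, while days 2, 4 and 6 gave 338 ± 48.5, 326 ± 29.8 and 154 ± 12.9 (SD, n = 3 spots). Days 8, 10 and 22 gave 51.7 ± 2.52, 70.3 ± 9.29 and 112 ± 16.5 (SD, n = 3 spots). In these units day 22 lay within the spot spread of day 0, and days 8 and 10 lay below it. Its percentile was 42.8 on day 0 and 65.9, 50, 59.7, 57.7, 55.6 and 85.3 on the 6 later arrays in order.

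MIR32, whose microRNA shares its seed with the miR-25 and miR-92 family and is known to repress the apoptosis gene BCL2L11, was the least steady of the 4 between spots. Its normalized log2 levels were 6.26 on day 0 and 6.93, 6.43, 6.51, 6.31, 7.11 and 6.60 on days 2, 4, 6, 8, 10 and 22. Days 2 and 10 were high and day 8 was nearly level with day 0. The SD of its 3 spots, as a root mean square over 7 arrays, was 0.28, against 0.18 for MIR95, 0.19 for MIR31 and 0.21 for MIR448. On day 10 the SD was 0.52. The difference of 0.05 on day 8 was smaller than the SD of 0.23 between spots there, and 1 of 3 spots stood above the same spot of day 0. The lowest spot cleared the highest spot of day 0, at 6.55, on days 2 and 10 only, and on day 10 by a margin lost in rounding.

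The intensity of MIR32 above the dimmest spot was 57 ± 18.7 units on day 0, while days 2, 4 and 6 gave 228 ± 26.5, 175 ± 56.3 and 70 ± 8.66 (SD, n = 3 spots). Days 8, 10 and 22 gave 20.7 ± 8.08, 68 ± 28.5 and 48.3 ± 7.64 (SD, n = 3 spots). Days 8 and 22 lay below day 0 in these units, day 22 by less than the SD of the day 0 spots. Its percentile was 9.42 on day 0 and 43.5, 19.8, 22.0, 13.0, 53.4 and 25.1 on days 2, 4, 6, 8, 10 and 22. Days 2 and 10 stood apart from the other 5 arrays, of which day 22 was the highest.

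MIR448, whose microRNA is known from fat cell differentiation, where it represses KLF5, met the rule by the smallest margin. Its normalized log2 levels were 7.12 on day 0 and 7.82, 7.12, 7.83, 7.53, 7.37 and 8.20 on days 2, 4, 6, 8, 10 and 22. Days 2, 6 and 22 were high, and day 4 could not be told from day 0, with a difference of 0.0058 against an SD between spots of 0.15 on day 4 and 0.33 on day 0. The lowest spot lay above the highest of day 0, at 7.34, on 4 of 6 days, which were days 2, 6, 8 and 22. In percentiles day 4 was below day 0, at 52.7 against 54.8, and days 2, 6, 8, 10 and 22 stood at 79.0, 80.0, 70.8, 64.5 and 86.5. MIR448 was thus above day 0 on 5 of 6 later days by rank, and also when the median of 3 spots replaced the mean.

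The intensity of MIR448 above the dimmest spot was 118 ± 24.9 units on day 0, while days 2, 4 and 6 gave 448 ± 52.3, 331 ± 45.0 and 226 ± 14.3 (SD, n = 3 spots). Days 8, 10 and 22 gave 68.7 ± 5.86, 81.3 ± 16.5 and 116 ± 11.1 (SD, n = 3 spots). In these units days 8, 10 and 22 lay below day 0, though the difference on day 22, of -2.33 units, was smaller than the spread of spots.

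**Figure D1:**
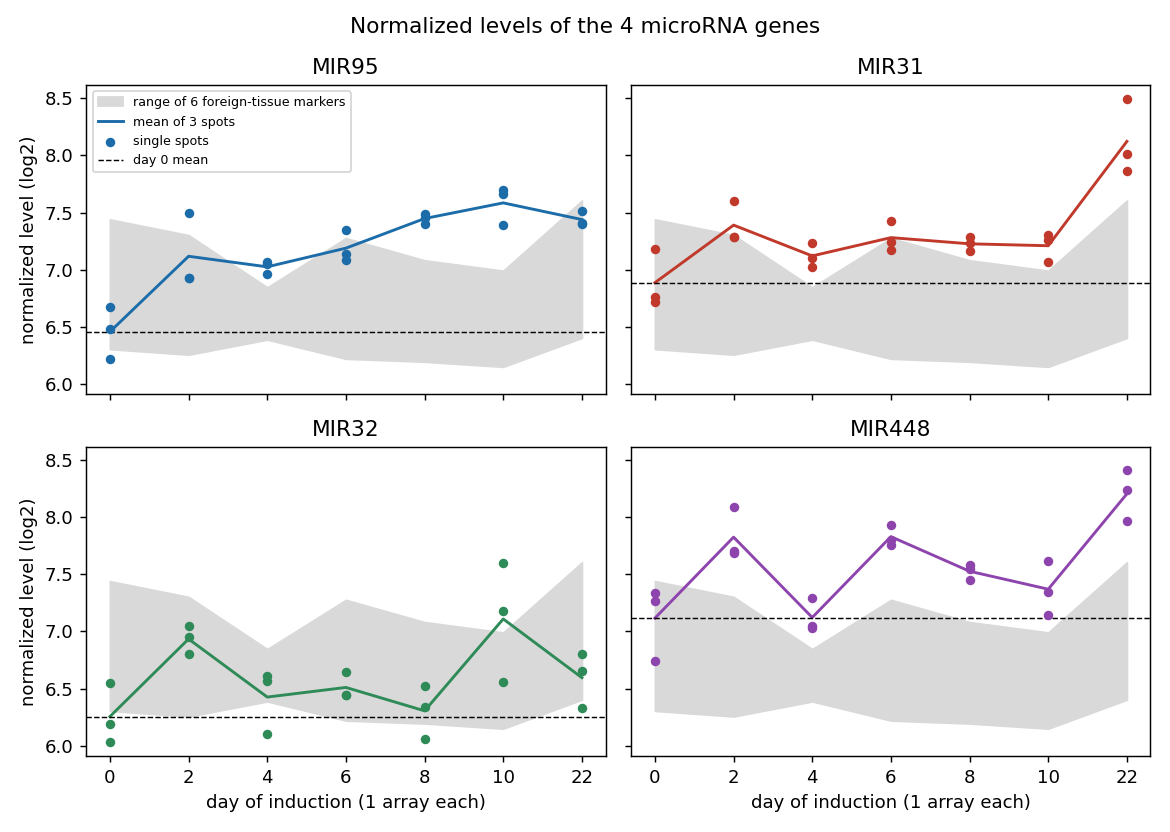
Normalized log2 level (y axis) by day of induction (x axis, 1 array per day) for MIR95, MIR31, MIR32 and MIR448. Points are the 3 spots, lines their mean, the dashed line is the day 0 mean and the grey band runs from the lowest to the highest of 6 microRNAs of other tissues on the same array. MIR95 has all spots of days 2 to 22 above its highest day 0 spot at 6.68, MIR31 stands out on day 22 at 8.12, and the day 4 mean of MIR448 lies on its day 0 line.

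**Figure D2:**
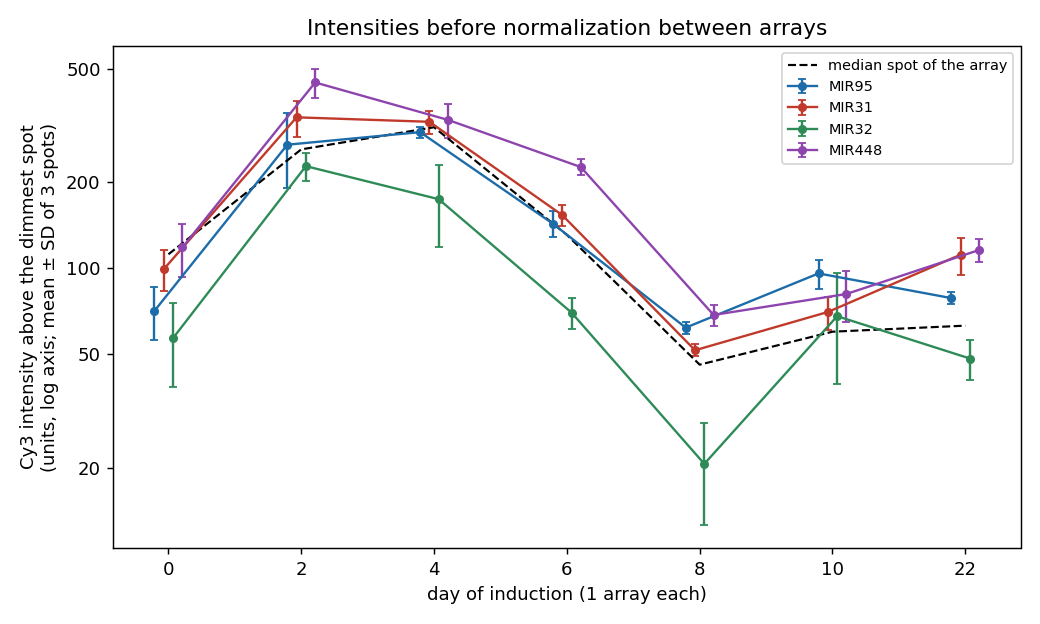
Cy3 intensity above the dimmest spot of the array (y axis, units, log axis) by day of induction (x axis, 1 array per day), as mean ± SD of 3 spots, with the median spot of the array as a dashed line. The 4 genes are brightest on days 2 and 4, when the median spot stands at 261 and 312 units, and dimmer from day 8, when it stands at 46.

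The rule singled out 24 of 207 features, a background of 11.6%, and 6 of the 67 named ones. The other two named features inside it were MIR98, a let-7 relative, and MIR424, of the miR-15 and miR-16 seed family. Mean differences from day 0 were 0.84 for MIR95, 0.53 for MIR448, 0.51 for MIR31 and 0.39 for MIR32, with a median of 0.52 over the 4. With a normexp offset of 10 in place of 50 the mean difference was 1.31 for MIR95, 0.72 for MIR448, 0.71 for MIR31 and 0.70 for MIR32. The median was also 0.52 over the 24 features, and 0.05 over all 207. In order of this mean difference MIR95 ranked 2, MIR448 11, MIR31 14 and MIR32 27 of 207 features. The smallest of its 6 differences put MIR448, at 0.0058 on day 4, and MIR32, at 0.05 on day 8, just inside the rule. Just outside were MIR425 at -0.04 on day 4, MIRLET7D at -0.05 on day 8 and MIR377 at -0.07 on day 22, each above day 0 on 5 of 6 days. The day of the smallest difference was day 4 for 5 of the 6 named features inside the rule, MIR32 being the exception.

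Whether a gene lay above day 0 throughout depended on how the arrays were put on 1 scale. By percentile, and with the median of 3 spots, MIR95, MIR31 and MIR32 lay above day 0 on 6 of 6 days and MIR448 on 5. After median centring MIR95, MIR31 and MIR448 lay above day 0 on 6 of 6 days and MIR32 on 5. After scaling to the 75th percentile MIR95 did so on 6 days, MIR31 and MIR448 on 5 and MIR32 on 4. Without normalization between arrays the counts were 5 for MIR95, 4 for MIR31, 4 for MIR32 and 3 for MIR448, with days 2, 4 and 6 above day 0 for all 4. Over all features the number above day 0 on 6 of 6 days was 23 by percentile, 21 after median centring, 11 after 75th percentile scaling and 2 without normalization. MIR95 was above day 0 on all 6 days under each of the 3 scalings and by percentile. So were unnamed features, among them those starting at rows 25, 139 and 160. As MIR95 was chosen on its differences from day 0, nothing is read from this.

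**Figure D3:**
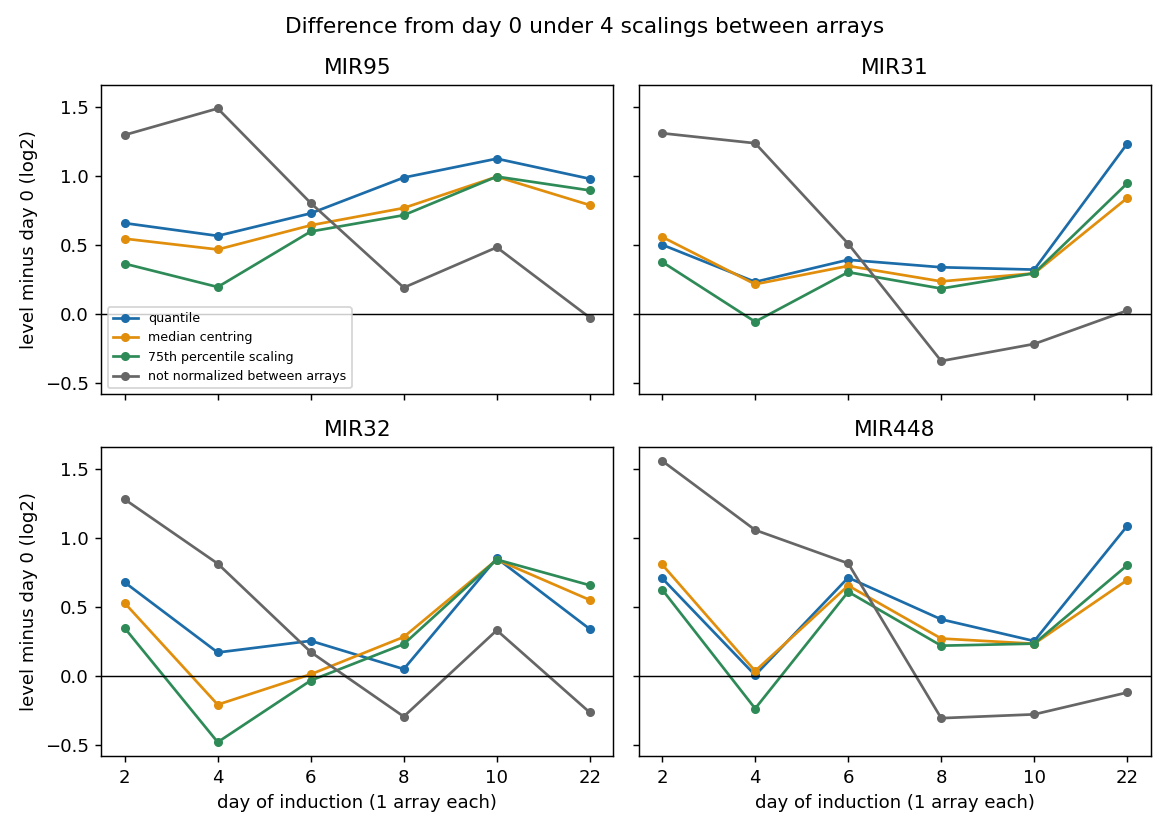
Log2 level minus that of day 0 (y axis) by day of induction (x axis, 1 array per day) under 4 ways of scaling arrays to each other. MIR95 stays above 0 under quantile normalization, median centring and 75th percentile scaling, while MIR31, MIR32 and MIR448 dip below 0 on day 4 under 75th percentile scaling. Without normalization MIR448 lies below day 0 on days 8, 10 and 22.

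Because the genes were chosen against day 0, tests were made among the later arrays alone. The trend over the order of days 2 to 22 asks whether a level went on moving once induction had begun. None of the 4 passed. The fitted log2 change from day 2 to day 22 was 0.51 ± 0.26 for MIR95 (SE, n = 6 arrays, adjusted p = 0.58, limma with Benjamini-Hochberg adjustment over 207 features), with a 95% interval of -0.11 to 1.13. It was 0.55 ± 0.39 for MIR31, 0.33 ± 0.44 for MIR448 and 0.02 ± 0.39 for MIR32 (SE, n = 6 arrays, limma adjusted p = 0.62, 0.77 and 0.97). The intervals reached from -0.36 to 1.47 for MIR31, -0.70 to 1.36 for MIR448 and -0.90 to 0.95 for MIR32, so those of MIR95, MIR31 and MIR448 held both 0 and 1. Unadjusted, 0 of the 4 had a p under 0.05, and that of MIR95 was 0.0953.

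Over all features 1.45% passed this limma trend test, which are 3 that fell and 0 that rose. They were MIR19A and the unnamed features starting at rows 151 and 265, the unnamed ones singled out after their values were seen. An unadjusted p under 0.05 was reached by 13 features with positive changes, or 6.28%, and by 16 with negative ones. The median fitted change was 0.04 over 207 features. Without normalization between arrays all 4 genes fell and were among 116 of 207 features that did so, with log2 changes of -1.46 for MIR95, -1.66 for MIR31, -1.38 for MIR32 and -1.93 for MIR448 (limma adjusted p = 0.032, 0.0289, 0.0454 and 0.0158). The median change over all features was then -1.51, so MIR95 and MIR32 fell by less than the median and MIR31 and MIR448 by more. With median centring the change of MIR448 was -0.05 and those of MIR95, MIR31 and MIR32 were 0.42, 0.22 and 0.51, and under 75th percentile scaling all 4 were positive. Without day 22 the changes of MIR31 and MIR448 turned to -0.13 and -0.25.

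The later time points were also divided at their middle, with days 2, 4 and 6 set against days 8, 10 and 22. MIR95 averaged 7.11 on the earlier and 7.49 on the later days, a difference of 0.38 ± 0.17 (SE, 3 arrays against 3, limma adjusted p = 0.417, 95% interval -0.03 to 0.79). Its 3 later arrays ran from 7.44 to 7.58 and its 3 earlier ones from 7.02 to 7.19, without overlap. How many of the 207 features split likewise was not counted, so nothing is read from this. The differences were 0.26 ± 0.29 for MIR31, 0.11 ± 0.31 for MIR448 and 0.05 ± 0.27 for MIR32 (SE, limma adjusted p = 0.754, 0.910 and 0.930), and their arrays overlapped. None of the 4 passed this limma test, where 0.966% of features did, namely MIR19A and the feature starting at row 151, both lower on the later days. Unadjusted, 0 of the 4 had a p under 0.05, against 9 features higher and 16 lower among all 207. Without normalization between arrays the signs turned, with -0.98 for MIR95, -1.20 for MIR31, -0.83 for MIR32 and -1.38 for MIR448 (limma adjusted p = 0.0442, 0.0286, 0.095 and 0.0146), while the median over all features was -1.02 and 86 of 207 were called lower.

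The arrays of days 2 to 6 and of days 8 to 22 also differed in how spots of 1 feature compared. Of the 30 features with the highest mean level, those whose last spot outshone the first numbered 23, 29, 26 and 25 for days 0, 2, 4 and 6 but 7, 8 and 11 for days 8, 10 and 22. Day 0, against which the 4 genes were chosen, thus lay with days 2 to 6. The part of this in the difference for MIR95 was not tested, and a change at day 8 and a difference between these sets of arrays cannot be told apart. With a term for days 8 to 22 in the limma trend fit, the change of MIR95 over all 5 steps from day 2 to day 22 was 0.08 (adjusted p = 0.967). Fitted within 3 arrays, and so over 2 steps, the change of MIR95 was 0.07 from day 2 to day 6 and -0.01 from day 8 to day 22, and that of MIR31 was -0.11 and 0.90. None of these passed the threshold.

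**Figure D4:**
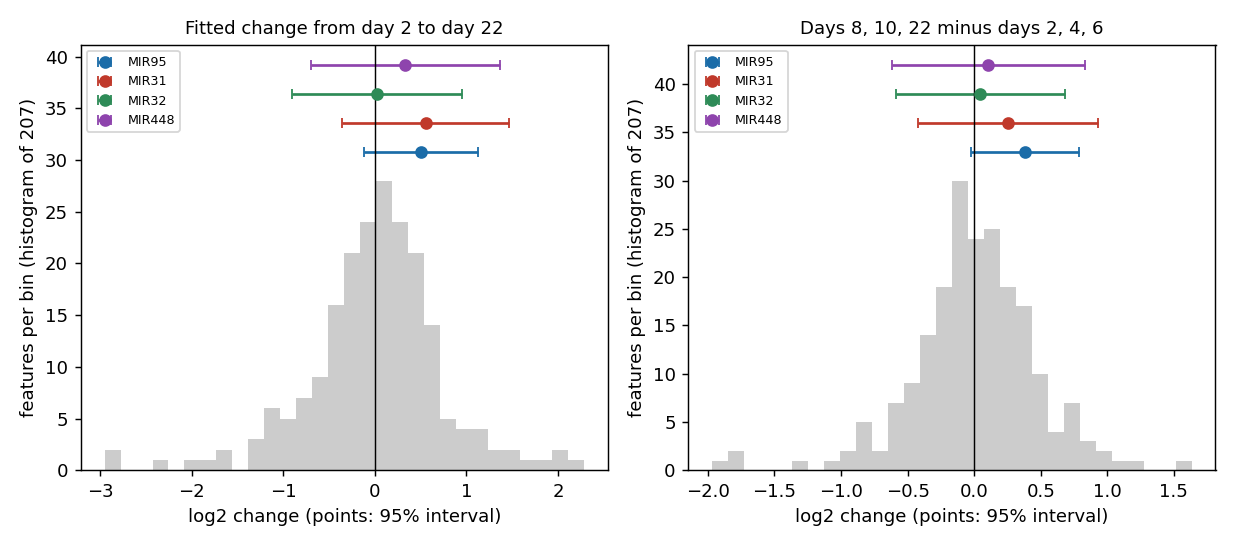
Left, fitted log2 change from day 2 to day 22, and right, mean of days 8, 10 and 22 minus mean of days 2, 4 and 6 (x axes), with the number of features per bin for all 207 features in grey (y axes). Points with bars are the estimates and 95% intervals for the 4 genes at arbitrary height, and each interval includes 0.

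The profiles of the 4 over 7 arrays fell into different shapes. MIR31 and MIR448 were the most alike pair, with a Pearson r of 0.88, and 0.86 without day 22. MIR95 correlated at 0.55 with MIR31, 0.53 with MIR32 and 0.50 with MIR448, and MIR32 at 0.24 with MIR31 and 0.26 with MIR448. All of these share the low day 0 array by choice. Over days 2 to 22 alone r was 0.84 for MIR31 with MIR448 and 0.02 to 0.28 for the other pairs. These correlations describe single arrays that share normalization and overall brightness.

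Among the 66 other named features MIR98 was most like MIR95, with r = 0.94 over 7 arrays and 0.84 over the later 6. MIR98 had log2 levels of 6.62 on day 0 and 6.99, 6.96, 7.05, 7.04, 7.34 and 7.27 on days 2, 4, 6, 8, 10 and 22. Next for MIR95 were MIR424 at 0.62 and MIR31 at 0.55, with 0.17 and 0.28 over the later 6 arrays. The median r of MIR95 with named features over 7 arrays was 0.06. MIR98, MIR424 and MIR31 all lie inside the rule and so share the low day 0 array with MIR95. That they exceed this median over 7 arrays follows in part from the rule.

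MIR31 was most like MIRLET7I at 0.92, MIR449A at 0.92 and MIRLET7G at 0.90, and this rested on day 22: without that array the values were 0.42, 0.52 and 0.38. Between day 10 and day 22 the level of MIRLET7I went from 8.31 to 10.83 and that of MIR449A from 7.90 to 9.78. Before normalization the brightest spot stood 554 units above the dimmest on day 22, against 2098 on day 10. Quantile normalization put both arrays on the same range, and its part in these rises was not tested. The median r of MIR31 with named features was 0.41. MIR448 was most like MIR337 at 0.93, MIR31 at 0.88 and MIR429, an epithelial microRNA, at 0.80. MIR337 was low, between 6.02 and 6.48, with a mean percentile of 8.28 over the arrays. MIR32 had no close partner, the highest r being 0.65 with MIR98, 0.61 with MIR377 and 0.57 with the embryonic MIR371A.

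The mature forms of MIR98 and MIRLET7I are shown because they carry the same seed, in capitals, yet the first was closest to MIR95 and the second to MIR31.
hsa-miR-98-5p: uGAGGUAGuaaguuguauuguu
hsa-let-7i-5p: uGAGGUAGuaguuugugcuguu

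The measured seed relatives of MIR32 did not lie above day 0 on all 6 later days, and nor did most features. MIR25, which lies in an intron of the replication gene MCM7, had log2 levels of 8.68 on day 0 and 7.90, 8.87, 8.99, 8.66, 8.63 and 7.70 on days 2, 4, 6, 8, 10 and 22, above day 0 on 2 of 6 days. MIR367, a microRNA of embryonic stem cells, stood at 6.36 on day 0 and between 6.23 and 6.63 later, above day 0 on 4 of 6 days. Of 7 listed genes with this seed 3 were measured. Above day 0 throughout lay 1 of 3, MIR32 itself, which was chosen for this, where 11.6% of all features did so. In the limma trend over days 2 to 22, 0 of the 3 passed, where 1.45% of all features did. The changes were -0.29 ± 0.57 for MIR25 and -0.18 ± 0.28 for MIR367 (SE, limma adjusted p = 0.852 and 0.816). The median change was -0.18 over the 3, against 0.04 over all features.

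Markers of other tissues gave the signal seen without known expression in these cells. Of 28 listed, 6 were measured: MIR367, MIR371A, MIR372 and MIR373 of embryonic cells, MIR429 of epithelia and MIR375 of pancreatic islets. Their mean log2 levels ranged from 6.37 for MIR375 to 7.11 for MIR373, and their summed intensity above the dimmest spot ran from 170 units on day 8 to 1254 on day 4. MIR448 and MIR31 lay above the highest of the 6 on 6 of 7 arrays, all but day 0. That day 0 was the exception follows in part from the choice of the genes. On day 6 MIR31 could not be told from MIR373, at 7.280 against 7.276 with SDs between spots of 0.13 and 0.20. MIR95 lay above the highest of the 6 on 3 of 7 arrays and MIR32 on 1 of 7, the day 10 array. By mean log2 level MIR373 stood at the 53.9th percentile of all features, MIR31 at the 62.6th and MIR448 at the 73.7th. Many other features thus also lay above MIR373 on average. How many did so array by array was not counted, so nothing particular to the genes is read from these counts. Probes differ in affinity, so the comparison with the markers places the signals and does not rank abundance. Of the 6 markers, 0 lay above day 0 on all later days, where 11.6% of all features did, and their part in the differences of the 4 genes was not tested.

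Of the red cell markers MIR451A, MIR144 and MIR486-1, 0 of 3 were among the named features, so the erythroid state of the cultures was not checked by them. Of 18 listed microRNAs of the red cell lineage 4 were measured, MIR15A, MIR15B, MIR22 and MIR96, and 0 of them lay above day 0 throughout, where 11.6% of all features did. None rose or fell in the limma trend over days 2 to 22, where 1.45% of all features passed, with a median change of -0.33 and an unadjusted p under 0.05 for MIR15A alone (change -1.31 ± 0.50, SE, adjusted p = 0.29). Their mean differences from day 0 had a median of 0.01.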

How the data were processed

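The deposited table holds linear Cy3 intensity. Isolation and Cy3 labelling used Ambion kits, per the labels. For the scanner and for any background correction, nothing is given in the sources used here. The authors' values have each array's mean subtracted (all columns average about 0), so scale and zero between arrays are unknown. All 8 columns were mapped by sample title. Each 3 consecutive rows formed a feature, named through GEO's platform annotation (67 with 1 gene symbol, 0 with several, 140 with none).

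Normexp (offset 50), log2, quantile normalization and averaging of 3 spots used limma 3.58.1 in R 4.3.3. Tests were lmFit and eBayes with Benjamini-Hochberg adjustment over 207 features and a threshold of 0.05. They were tested on simulated data with 40 of 207 features changed. Of features changed 2-fold, the trend called 11.6% and the difference of days 8 to 22 from days 2 to 6 called 57.4%. Of those changed 4-fold, the calls were 76.4% and 91.8%. Not passing the trend thus says little about changes of 2-fold or less. Arrays are single time points, and whether they came from separate cultures is not stated, so p-values measure the scatter between arrays. Percentiles rank raw features within an array. The members and lists were chosen with earlier results of these data known. Named were the 4 members, the 3 named features most like each, those inside or just outside the rule, and list members. Alternatives were other scalings, backgrounds, time scales, filters, array weights and left-out arrays. Sequences come from RefSeq (GRCh38.p14), and 65 of 67 named features matched.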

Additional observations from a re-analysis of the deposited data

How the results depend on the processing

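Without normalization between arrays the limma trend over days 2 to 22 called 116 features and the difference of days 8 to 22 from days 2 to 6 called 86, all lower, against 3 and 2, and 2 features lay above day 0 throughout against 24. The 4 genes then changed sign: MIR95 -1.46 and -0.98, MIR31 -1.66 and -1.20, MIR32 -1.38 and -0.83, MIR448 -1.93 and -1.38 for trend and difference. Median centring called 0 in both tests and gave MIR448 -0.050 and -0.10. Scaling to the 75th percentile called 27 in the trend (25 higher, 2 lower) and 0 in the difference, with 11 above day 0; the share of positive fitted changes was 53.6% after quantile normalization, 64.7% after median centring, 79.2% after 75th percentile scaling and 0.966% without normalization. Percentile ranks called 0 in the trend. A normexp offset of 10 called 4 and 3 and gave mean differences from day 0 of 1.31 for MIR95 and 0.70 for MIR32. The difference called 0 with the dimmest spot set to 50 and 0 with the filter at the median level, which left 13 above day 0 since fewer features entered. The trend called 9 on day number, 1 with day 0 added and 6 with array weights, which did not fully converge; the difference called 11 with weights (MIR448 -0.037) and 1 with order within both sets of days added. MIR32 had a trend of -0.028 on day number and -0.11 on log2 day. Added after seeing the data, a term for days 8 to 22 left 0 calls (MIR32 -0.17), the trend within days 2, 4 and 6, over 2 steps, gave MIR31 -0.11 and MIR32 -0.42, and that within days 8, 10 and 22, also over 2 steps, gave 0 calls and MIR95 -0.0088. The causes were not tested. Leaving out 1 later array gave 0 to 8 calls in the trend and 0 to 9 in the difference, both highest without day 22, and 27 to 30 features above day 0 on the 5 days left. In these fits the trend, as the slope times 5 steps, ranged from 0.43 to 0.68 for MIR95, -0.13 to 0.97 for MIR31, -0.26 to 0.47 for MIR32 and -0.25 to 0.85 for MIR448, and the difference from 0.33 to 0.42, -0.046 to 0.41, -0.17 to 0.23 and -0.14 to 0.27. No paired analysis was possible because each time point has 1 array. Apart from the fits without normalization, 0 of the 4 genes passed under any alternative.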

Other observations

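Of the 6 named features above day 0 throughout, 3 lie on chromosome X (MIR424, MIR448 and MIR98), which holds 8 of the 67 named features. On chromosome 9 they were MIR31 and MIR32 of 4, beside MIRLET7D and MIR23B, and on chromosome 4 MIR95 of 2, beside MIR367. These counts were made after the values were seen and have no test.

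MIR95 was the only named feature among the 6 with the largest mean differences from day 0. The other 5 were unnamed features that start at rows 160, 139, 148, 163 and 157, with mean differences of 0.92, 0.80, 0.78, 0.78 and 0.76, all above day 0 on 6 of 6 days. They lie near one another in the row order of the table.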
